A study of Homo sapiens with 32 samples.

Results

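The step examined here is the early G1 interval between 80 and 105 minutes after human HUH7 cells were released from a mitotic block. HUH7 is an established hepatoma line. Nascent RNA at 105 minutes was compared with nascent RNA at 80 minutes. The 105-minute group had 3 libraries and the 80-minute group had 3, so 6 of the 32 samples of the series bear on the step. Each group is deposited as 1 pooled column of FPKM, that is, read density scaled to transcript length and library size. Genes with 10 or more FPKM in either column were kept, which left 17653 of the 24242 genes in the table. No values per library were used here, so every difference below is a size with no error between libraries, no test and no p-value. The text calls a gene higher or lower by the log2 difference of FPKM + 1, 105 minus 80 minutes, and counts genes past 1.5-fold and past 2-fold.

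Both groups were cells of the same line that had been held in 2 mM thymidine for 24 hours, freed for 2 hours, and blocked in 0.06 ug/mL nocodazole for 16 hours. Nocodazole depolymerises microtubules and stops cells before the chromosomes separate. The mitotic cells were shaken off the plate, washed and plated again in medium without the drug. The 105-minute and 80-minute groups differ in the time of release at which 0.5 mM 5-ethynyl uridine (EU) was given. EU is a uridine analogue that is built into RNA as it is made, and the labelled RNA was captured on beads after a pulse of 40 minutes. The times lie 25 minutes apart, so the labelling windows of both groups share 15 minutes if each pulse began at its stated time. A population of released cells was labelled, so the share of cells that had left mitosis and the RNA made per cell cannot be told apart. Released cells at 0, 40, 165 and 300 minutes and an asynchronous culture, each with 3 libraries, are given beside the step as context. Libraries made without EU were not analysed here.

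When cells divide, most transcription stops as chromosomes condense, and it starts again as the nucleus re-forms. Genes do not restart together, and polymerases that initiate after mitosis need time to travel to the ends of long genes. In the same interval cells spread and re-attach, genes used for division are switched off by complexes that bind their promoters, and the genes of the G1 phase are read.

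Across all genes the step was small and nearly symmetric. The median difference of the 17653 kept genes was -0.01 log2, with quartiles of -0.24 and 0.23. At 105 minutes 1071 genes were at least 1.5-fold higher, 6.07% of those kept, and 1311 were at least 1.5-fold lower, 7.43%. At 2-fold there were 341 higher genes (1.93%) and 393 lower genes (2.23%), and 86.5% of genes stayed within 1.5-fold. Of the kept genes 14.98% had their highest value of the 6 release times at 105 minutes. The precision depends on length. If the smallest step in the values of microRNA genes is 1 read, a gene of 10 kb at 10 FPKM rests on 37.6 estimated reads at 105 minutes and 36.7 at 80 minutes, which gives a counting error of 0.33 log2. For a gene of 1 kb at 10 FPKM it is 1.06 log2. These errors cover counting only. Among the 15361 genes with 100 or more estimated reads, 72 were at least 2-fold higher and 79 at least 2-fold lower.

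**Figure D1:**
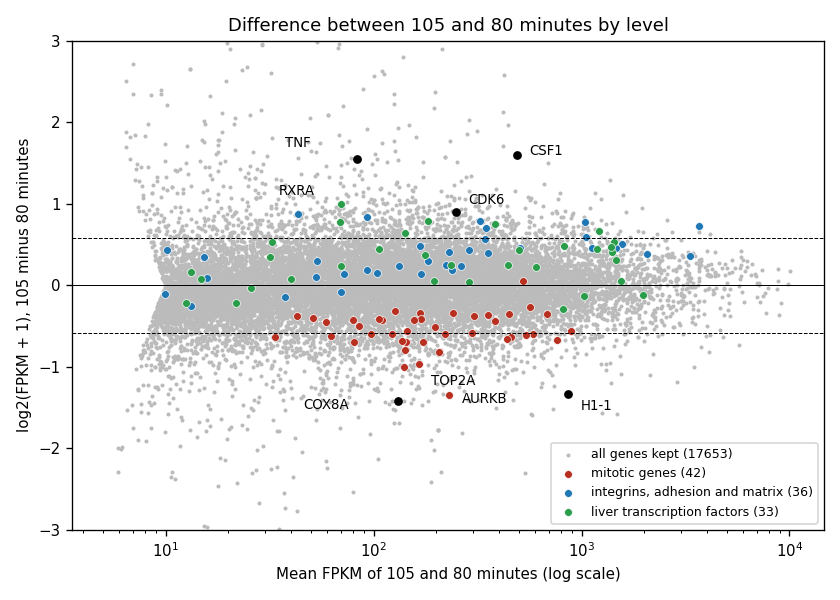
Log2 difference of FPKM + 1 (105 minus 80 minutes, vertical axis) against the mean FPKM of both columns (log scale). Grey points are the 17653 kept genes, coloured points are members of 3 gene lists, black points are single genes, and dashed lines mark 1.5-fold. Points scatter most at low levels, mitotic genes lie mostly below 0, and adhesion and liver factor genes mostly above 0. The 158 genes beyond 3 log2 units are outside the plot.

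Genes used in mitosis were lower at 105 minutes. All 42 listed genes were kept, 41 of them were lower at 105 minutes, and their median was -0.56 log2, against -0.01 for all genes. Of the 42, 20 (47.6%) were at least 1.5-fold lower, against 7.43% of all genes, and 0 were at least 1.5-fold higher. Relative to genes of similar length the median was -0.51 log2. AURKB, the kinase of the chromosomal passenger complex, had 130.4 FPKM at 105 minutes, against 333 FPKM at 80 minutes, which is 2.54-fold lower. UBE2C, the ubiquitin-conjugating enzyme of the anaphase-promoting complex, had 93.4 FPKM at 105 minutes, against 188 FPKM at 80 minutes, which is 2.004-fold lower. These were the members past 2-fold. TOP2A, the topoisomerase that untangles sister chromatids, had 111 FPKM at 105 minutes, against 218 FPKM at 80 minutes. CDCA8, another passenger complex subunit, had 149 FPKM at 105 minutes, against 264 FPKM at 80 minutes.

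Most other members were also lower. The spindle checkpoint kinase TTK had 104 FPKM at 105 and 179.7 FPKM at 80 minutes, and the kinetochore subunit NDC80 had 61.4 FPKM at 105 and 100.5 FPKM at 80 minutes. CDK1, the kinase that drives entry into mitosis, had 132 FPKM at 105 and 215 FPKM at 80 minutes, and the centrosomal kinase NEK2 had 105 FPKM at 105 and 169 FPKM at 80 minutes. CCNA2, CCNB2 and CENPE, which encode cyclins A2 and B2 and a kinetochore motor, had log2 differences of -0.37, -0.35 and -0.31. Of the lower members the checkpoint gene BUB3 lay nearest to 0, at -0.27 log2. ECT2, which activates RhoA for cytokinesis, was the member above 0, with 535 FPKM at 105 and 514 FPKM at 80 minutes.

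The mitotic genes differed in the time of their highest value. AURKB had 316, 515, 333, 130.4, 66.7 and 103 FPKM at 0, 40, 80, 105, 165 and 300 minutes, and 835 FPKM in the asynchronous culture. It was highest at 40 minutes and lower at both 80 and 105 minutes. CDCA8 had 226, 248, 264, 149, 81.6 and 67.2 FPKM at the 6 release times, and 292 FPKM in the asynchronous culture. Its highest release value was at 80 minutes. CDK1 had 356, 365, 215, 132, 107 and 141 FPKM at the 6 release times, and 607 FPKM in the asynchronous culture, so its values at 80 and 105 minutes both lay under that at 40 minutes. Across the 42 genes the median log2 difference was -0.01 for 80 minus 40 minutes, -0.56 for 105 minus 80 and -0.43 for 165 minus 105. Neighbouring steps share a column, so these medians are not independent of each other.

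Promoters of these genes are shown because nearly all members were lower. Many mitotic genes are known to carry a cell cycle genes homology region, with the core TTTGAA, which the MuvB-containing complexes bind, and upstream CCAAT boxes, which NF-Y binds. In RefSeq sequences of build GRCh38.p14, from 250 bases before to 50 bases after the start, 24 of the 35 mitotic genes with an entry (68.6%) held TTTGAA on either strand. The same letters were in 15.4% of all 27305 promoters and 10.8% of the 12747 promoters of kept genes. CCAAT on either strand was in 27 of the 35 (77.1%), against 35.7% of all promoters and 37.0% of those of kept genes. The 24 genes with TTTGAA had a median difference of -0.53 log2 and the 11 without it -0.59 log2, so genes with and without these letters in this window had close medians. The lowest difference was -0.97 log2 among genes with TTTGAA and -1.35 log2, that of AURKB, among those without it. AURKB and UBE2C, the members past 2-fold, were therefore not among the 24. Capitals mark TTTGAA and CCAAT, and TTCAAA and ATTGG are the same motifs on the opposite strand. In CDCA8 they overlap in the run TTTGAATTGG.
CDCA8 (chr1:37692266-37692565, plus strand): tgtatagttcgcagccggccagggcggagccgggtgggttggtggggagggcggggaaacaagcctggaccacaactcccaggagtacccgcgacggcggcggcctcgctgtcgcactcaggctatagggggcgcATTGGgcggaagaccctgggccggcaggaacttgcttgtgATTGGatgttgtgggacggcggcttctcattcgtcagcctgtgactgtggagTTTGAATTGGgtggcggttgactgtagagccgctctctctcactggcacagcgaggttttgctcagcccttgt
PLK1 (chr16:23678639-23678938, plus strand): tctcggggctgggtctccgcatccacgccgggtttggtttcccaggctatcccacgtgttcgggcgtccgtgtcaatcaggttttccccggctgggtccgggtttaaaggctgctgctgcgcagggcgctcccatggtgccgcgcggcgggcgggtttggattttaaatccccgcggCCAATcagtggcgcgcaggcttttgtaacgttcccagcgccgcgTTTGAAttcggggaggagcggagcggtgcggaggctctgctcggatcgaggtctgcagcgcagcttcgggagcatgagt
KIF11 (chr10:92592880-92593179, plus strand): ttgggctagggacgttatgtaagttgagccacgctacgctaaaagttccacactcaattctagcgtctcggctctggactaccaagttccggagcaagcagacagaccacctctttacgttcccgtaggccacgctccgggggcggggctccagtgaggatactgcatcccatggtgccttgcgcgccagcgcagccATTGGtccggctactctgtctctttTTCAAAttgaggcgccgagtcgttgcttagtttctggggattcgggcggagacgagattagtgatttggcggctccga
PRC1 (chr15:90994486-90994785, minus strand): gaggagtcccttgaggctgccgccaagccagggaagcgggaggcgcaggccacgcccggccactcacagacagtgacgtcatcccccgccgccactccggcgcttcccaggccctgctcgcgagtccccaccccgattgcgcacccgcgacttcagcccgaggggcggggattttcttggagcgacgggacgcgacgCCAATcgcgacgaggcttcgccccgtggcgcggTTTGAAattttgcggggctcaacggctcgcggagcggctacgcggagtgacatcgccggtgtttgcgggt
The TTTGAA match began 23 bases before the start in CDCA8, 29 in PLK1, 28 in KIF11 and 20 in PRC1. PLK1, a kinase of spindle assembly, had 174 FPKM at 105 minutes, against 265 FPKM at 80 minutes. KIF11, the motor that pushes spindle poles apart, had 97.6 FPKM at 105 minutes, against 148 FPKM at 80 minutes. PRC1, which bundles the microtubules of the central spindle, had 429.7 FPKM at 105 minutes, against 654 FPKM at 80 minutes. All 4 genes hold TTTGAA and were lower at 105 minutes, as were 41 of the 42 listed genes.

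**Figure D2:**
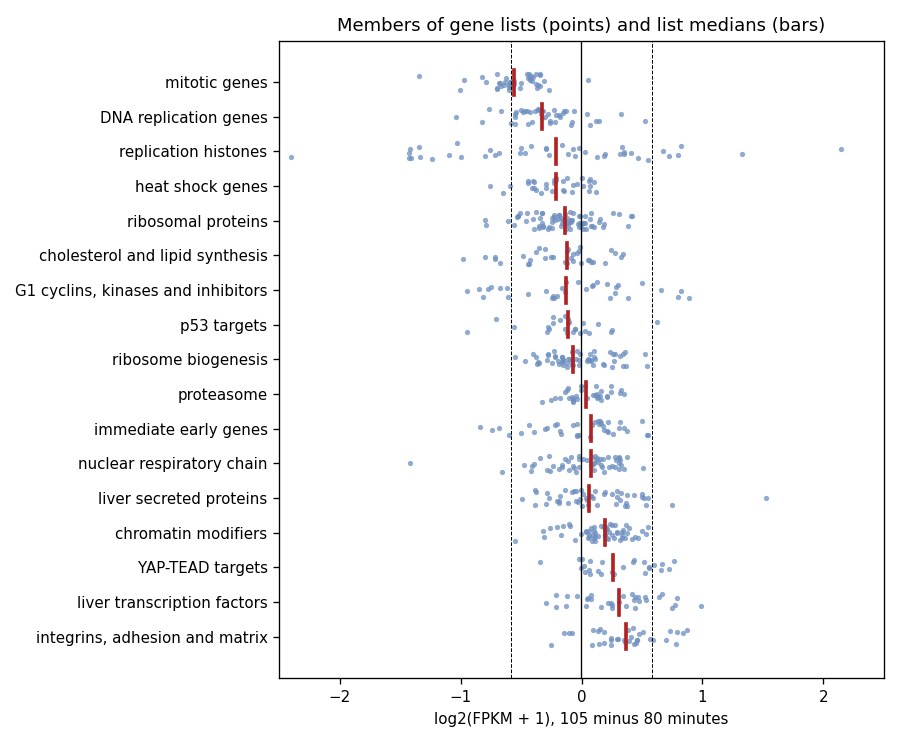
Log2 difference of FPKM + 1 (105 minus 80 minutes) for each kept member (points) of 17 gene lists, with list medians as bars. The black line is the all-gene median and dashed lines mark 1.5-fold. Mitotic genes reach furthest below 0 as a list (median -0.56) and adhesion genes furthest above among those drawn (0.37). The 1 member beyond 2.4 log2 units, H2BC10, is drawn at the limit.

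Most DNA replication genes were lower by a smaller amount. All 45 listed genes were kept, 39 were lower at 105 minutes and 6 higher, with a median of -0.32 log2. At least 1.5-fold lower were 4 (8.89%), a share close to the 7.43% of all genes, and 0 were at least 1.5-fold higher. PCNA, the sliding clamp of the replication fork, had 450.0 FPKM at 105 minutes, against 925 FPKM at 80 minutes, 2.05-fold lower. UNG, which removes uracil from DNA, had 141 FPKM at 105 minutes, against 251 FPKM at 80 minutes. RPA3, a subunit of the single-strand binding protein, and ORC6, a subunit of the origin recognition complex, had 27.7 FPKM at 105 and 47.7 FPKM at 80 minutes for RPA3, and 644 FPKM at 105 and 1024 FPKM at 80 minutes for ORC6. GMNN, which encodes the licensing inhibitor geminin, had 1084 FPKM at 105 and 1575 FPKM at 80 minutes, a log2 difference of -0.54.

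Of the 6 genes of the replicative helicase, MCM2 to MCM7, 5 were lower and 1, MCM3, was higher. MCM5 had the lowest log2 difference of the 6, -0.55, and MCM3 had 0.52. MCM3 had 315, 306, 361, 519, 908 and 968 FPKM at 0, 40, 80, 105, 165 and 300 minutes, and 929.9 FPKM in the asynchronous culture, so it climbed at each step from 40 to 300 minutes. MCM5 had 39.1, 44.8, 54.9, 37.2, 84.5 and 177 FPKM at the 6 release times, and 237 FPKM in the asynchronous culture, with its lowest release value at 105 minutes. PCNA had 180.4, 314, 925, 450.0, 297 and 466 FPKM at the 6 release times, and 1184 FPKM in the asynchronous culture. Its 80-minute value stands above those of all other release times, and the 105-minute value lies between those at 80 and 165 minutes.

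Replication-dependent histone genes make the histones that package new DNA, and they are normally read in S phase. Of 55 listed genes 54 were in the table and 44 were kept. Their median was -0.22 log2, with 27 lower and 17 higher in all. Past 1.5-fold, 15 (34.1%) were lower and 6 (13.6%) higher, against 7.43% and 6.07% of all genes. By type, the medians were 0.25 for 4 H1 genes, -0.07 for 10 H2A, -0.16 for 13 H2B, -0.51 for 8 H3 and 0.03 for 9 H4 genes. The genes are short and have near-identical copies, so reads could be split between them, and many rest on few reads. Some passed the 10 FPKM filter in 1 column alone, such as H2BC10, with 15.6 FPKM at 80 and 0.20 FPKM at 105 minutes. With 100 or more estimated reads, the median was -0.07 log2. H1-1, a linker histone gene, had 5.75, 58.4, 1239, 491, 30.03 and 24.8 FPKM at 0, 40, 80, 105, 165 and 300 minutes, and 2233 FPKM in the asynchronous culture. H4C1 had 128, 242, 1227, 484, 125 and 24.05 FPKM at the 6 release times, and 379.8 FPKM in the asynchronous culture, and H3C2 had 1.07, 6.77, 425, 159, 100.4 and 1.73 FPKM at the 6 release times, and 1969 FPKM in the asynchronous culture. These 3 genes were highest among the release times at 80 minutes, and were 2.52-fold, 2.53-fold and 2.66-fold lower at 105 minutes. They rest on 139.6, 73.2 and 30.5 estimated reads at 105 minutes, and 344, 181 and 79.7 at 80 minutes.

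Other histone genes went the other way. H2AC7 had 1573 FPKM at 105 minutes, against 1076 FPKM at 80 minutes, and H2BC9 had 995 FPKM at 105 minutes, against 624 FPKM at 80 minutes. H1-3 had 426 FPKM at 105 minutes, against 244 FPKM at 80 minutes, and H2BC18 had 304 FPKM at 105 minutes, against 184 FPKM at 80 minutes. H1-3 and H2BC18 were higher still at 165 minutes, with 706 and 482 FPKM. Members of the list therefore differed in direction at this step.

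The promoters of H1-1 and H3C2 are shown because these genes were low at 0 minutes, at 5.75 and 1.07 FPKM, and high at 80 minutes. TATAAA on either strand was in 26 of 40 histone promoters (65.0%), against 11.95% of all promoters and 6.79% of those of kept genes, and CCAAT was in 34 of 40 (85.0%). Capitals mark TATAAA and CCAAT, or TTTATA and ATTGG on the opposite strand.
H1-1 (chr6:26017738-26018037, minus strand): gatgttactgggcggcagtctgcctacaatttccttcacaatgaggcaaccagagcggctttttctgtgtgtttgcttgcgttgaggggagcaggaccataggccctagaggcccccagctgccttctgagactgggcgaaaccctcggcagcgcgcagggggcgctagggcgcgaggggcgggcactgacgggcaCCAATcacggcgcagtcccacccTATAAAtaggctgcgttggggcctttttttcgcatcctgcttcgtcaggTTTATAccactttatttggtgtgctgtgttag
H3C2 (chr6:26032050-26032349, minus strand): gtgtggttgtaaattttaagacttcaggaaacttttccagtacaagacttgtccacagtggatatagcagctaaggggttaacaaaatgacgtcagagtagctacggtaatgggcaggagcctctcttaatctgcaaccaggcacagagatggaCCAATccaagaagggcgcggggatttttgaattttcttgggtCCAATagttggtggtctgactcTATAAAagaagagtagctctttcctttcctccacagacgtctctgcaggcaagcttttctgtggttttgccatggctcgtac
TATAAA began 31 bases before the start in H1-1 and 32 in H3C2.

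**Figure D3:**
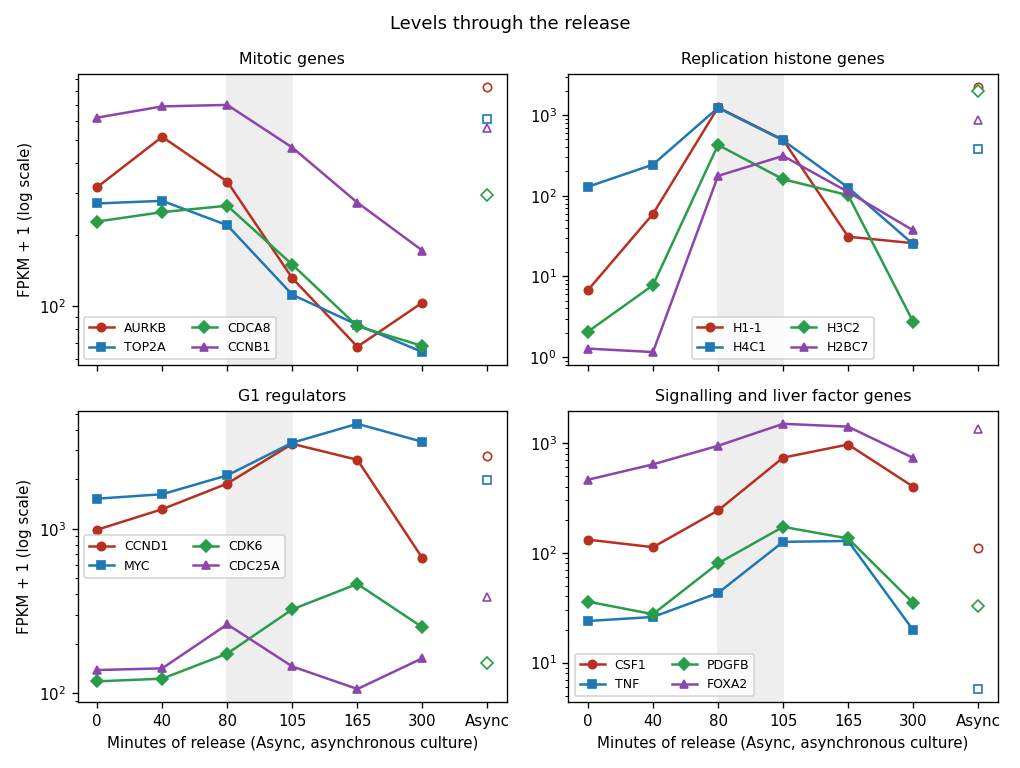
FPKM + 1 (log scale) of 16 genes at the 6 release times, joined by lines, and in the asynchronous culture (open symbols). Times are equally spaced on the axis and grey marks the step from 80 to 105 minutes. AURKB, H1-1, H4C1, H3C2 and CDC25A are lower at 105 than at 80 minutes, while CCND1, MYC, CDK6, CSF1, TNF, PDGFB and FOXA2 are higher.

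Regulators of G1 lay in both directions. The 33 kept genes had a median of -0.13 log2. Past 1.5-fold, 4 (12.1%) were higher and 8 (24.2%) lower, against 6.07% and 7.43% of all genes. Higher at 105 minutes were the D-type cyclin gene CCND1, its partner kinase CDK6, and the transcription factor genes MYC and MYCN. CDK6 had 323 FPKM at 105 minutes, against 174 FPKM at 80 minutes, 1.86-fold higher. MYCN had 1131 FPKM at 105 minutes, against 639.8 FPKM at 80 minutes, 1.77-fold higher. CCND1 had 986, 1314, 1881, 3279, 2623 and 662 FPKM at 0, 40, 80, 105, 165 and 300 minutes, and 2766 FPKM in the asynchronous culture, with its highest release value at 105 minutes. MYC had 1523, 1620.4, 2111, 3332, 4341 and 3375 FPKM at the 6 release times, and 1969.6 FPKM in the asynchronous culture, and was highest at 165 minutes.

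At least 1.5-fold lower were 8 genes of the list. CDC25A, the phosphatase that activates CDK2, had 145 FPKM at 105 minutes, against 262 FPKM at 80 minutes. CCNE2, which encodes cyclin E2, had 197 FPKM at 105 minutes, against 348 FPKM at 80 minutes. CDK2 itself had 269 FPKM at 105 and 413 FPKM at 80 minutes, and the factors E2F1 and E2F8 had 189 FPKM at 105 and 303 FPKM at 80 minutes for E2F1, and 108 FPKM at 105 and 185 FPKM at 80 minutes for E2F8. MXD3, a MAX-binding repressor, had 154 FPKM at 105 minutes, against 297 FPKM at 80 minutes, 1.92-fold lower. CDKN2C, the p18 inhibitor of CDK4 and CDK6, had 79.7, 134, 634, 377, 95.02 and 26.9 FPKM at 0, 40, 80, 105, 165 and 300 minutes, and 79.96 FPKM in the asynchronous culture, so its 80-minute value was the highest of all columns. The 8th gene, CCND3, had 33.9 FPKM at 105 and 52.1 FPKM at 80 minutes. CCNE1, which encodes cyclin E1, had 136 FPKM at 105 and 166 FPKM at 80 minutes, a log2 difference of -0.29.

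Immediate early genes, which respond within minutes to serum and stress, did not move as one group. Of 38 kept genes 20 were higher and 18 lower, with a median of 0.08 log2, or 0.21 relative to genes of similar length. At least 1.5-fold lower were 4 (10.5%), against 7.43% of all genes, and 0 were at least 1.5-fold higher. NR4A1, an orphan nuclear receptor gene, had 1755, 2799, 1347, 751, 189 and 52.6 FPKM at 0, 40, 80, 105, 165 and 300 minutes, and 124 FPKM in the asynchronous culture. FOS, a subunit of the AP-1 factor, had 3819, 5363, 1803, 1078, 455 and 141 FPKM at the 6 release times, and 993 FPKM in the asynchronous culture. Both were highest at 40 minutes and lower at each later release time. KLF2 had 89.1 FPKM at 105 and 144 FPKM at 80 minutes and NR4A2 had 1932 FPKM at 105 and 2933 FPKM at 80 minutes. EGR1 had 1478 FPKM at 105 and 1673 FPKM at 80 minutes, a log2 difference of -0.18. On the other side, the AP-1 gene JUN had 6589.7 FPKM at 105 minutes, against 5164 FPKM at 80 minutes. The feedback inhibitor genes DUSP6 and SPRY4 had 2870.4 FPKM at 105 and 2210.4 FPKM at 80 minutes for DUSP6, and 1197 FPKM at 105 and 846 FPKM at 80 minutes for SPRY4, and IER3 had 1964 FPKM at 105 and 1343 FPKM at 80 minutes. None of these 4 reached 1.5-fold.

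Targets of p53, which is known to be activated when mitosis is prolonged, had a median of -0.11 log2 over 26 kept genes. TNFRSF10B, a death receptor gene, had 1115 FPKM at 105 minutes, against 723 FPKM at 80 minutes. PHLDA3, an inhibitor of AKT, had 26.03 FPKM at 105 minutes, against 51.1 FPKM at 80 minutes, and FDXR, a mitochondrial reductase gene, had 34.9 FPKM at 105 minutes, against 57.6 FPKM at 80 minutes. These were the members past 1.5-fold, 3.85% higher and 7.69% lower, against 6.07% and 7.43% of all genes. CDKN1A, the p21 inhibitor gene, had 333, 642, 588, 645, 369 and 122 FPKM at 0, 40, 80, 105, 165 and 300 minutes, and 19.8 FPKM in the asynchronous culture. Its 105-minute and 80-minute values differed by 0.13 log2, and MDM2, which encodes the ubiquitin ligase for p53, had a difference of 0.01 log2.

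Genes of cell adhesion and matrix were mostly higher. Of 39 listed genes 36 were kept, 32 were higher at 105 minutes and 4 lower. Their median was 0.37 log2, and also 0.37 relative to genes of similar length. At least 1.5-fold higher were 7 (19.4%), against 6.07% of all genes, and 0 were at least 1.5-fold lower. ITGAV, the integrin alpha V chain, had 738, 921, 763, 1309.8, 1509 and 552 FPKM at 0, 40, 80, 105, 165 and 300 minutes, and 1156 FPKM in the asynchronous culture. THBS1, the secreted matrix protein thrombospondin 1, had 1559.5, 2035, 2748, 4562, 4873 and 2943 FPKM at the 6 release times, and 2918 FPKM in the asynchronous culture. Both were higher at 105 than at 80 minutes, highest at 165 and lower at 300 minutes. TNS3 and TNS1, which encode tensins that link integrins to actin, had 411 FPKM at 105 and 237 FPKM at 80 minutes for TNS3, and 119 FPKM at 105 and 66.2 FPKM at 80 minutes for TNS1. CDH2, which encodes N-cadherin, had 429 FPKM at 105 minutes, against 264 FPKM at 80 minutes. The laminin chain gene LAMB1 had 1265 FPKM at 105 minutes, against 838 FPKM at 80 minutes, and the collagen gene COL18A1 had 56.2 FPKM at 105 minutes, against 30.3 FPKM at 80 minutes. The members with lower values were ITGB4, LAMA3, ITGB3 and SDC1, with log2 differences between -0.25 and -0.08.

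YAP and TEAD factors respond to cell spreading and stiffness. Of 29 listed genes 26 were kept, with a median of 0.26 log2. At least 1.5-fold higher were 5 (19.2%), against 6.07% of all genes, and 0 were at least 1.5-fold lower. IGFBP3, a binding protein for insulin-like growth factors, had 625 FPKM at 105 minutes, against 367 FPKM at 80 minutes. CRIM1 and MYOF, both membrane proteins, had 698 FPKM at 105 and 424 FPKM at 80 minutes for CRIM1, and 494 FPKM at 105 and 311 FPKM at 80 minutes for MYOF. AMOTL1, which binds YAP, had 149.7 FPKM at 105 and 94.5 FPKM at 80 minutes, and the kinase gene NUAK2 had 2055 FPKM at 105 and 1358 FPKM at 80 minutes. The classical targets CCN1 and CCN2 barely differed, with 5904 FPKM at 105 and 5617 FPKM at 80 minutes for CCN1, and 3492 FPKM at 105 and 3538 FPKM at 80 minutes for CCN2. CCN2 had 1307, 2221, 3538, 3492, 2231 and 628 FPKM at 0, 40, 80, 105, 165 and 300 minutes, and 4376 FPKM in the asynchronous culture. Its values at 80 and 105 minutes were the highest of the release times.

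In the cytoskeleton list the median was 0.00 log2 over 42 genes. Past 1.5-fold, 1 member (2.38%) was higher and 3 (7.14%) lower, against 6.07% and 7.43% of all genes. TPM1, which encodes an actin-binding tropomyosin, had 985 FPKM at 105 minutes, against 524 FPKM at 80 minutes. The 3 lower members were tubulin genes. TUBA1B had 332 FPKM at 105 minutes, against 624 FPKM at 80 minutes, TUBB had 268 FPKM at 105 minutes, against 437 FPKM at 80 minutes, and TUBA1A had 76.99 FPKM at 105 minutes, against 119 FPKM at 80 minutes. By symbol, 16 tubulin alpha and beta genes were kept, with a median of -0.25 log2, and their reads may be shared between close copies. The actin cross-linking genes ACTN4 and FLNA had log2 differences of 0.49 and 0.43. ACTB, which encodes beta-actin, had 457 FPKM at 105 and 434 FPKM at 80 minutes.

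Liver transcription factors were mostly higher. All 33 listed genes were kept, 27 were higher at 105 minutes and 6 lower, and they had a median of 0.31 log2. At least 1.5-fold higher were 6 (18.2%), against 6.07% of all genes, and 0 were at least 1.5-fold lower. FOXA2, a pioneer factor, had 462, 639, 943, 1497, 1410.0 and 731 FPKM at 0, 40, 80, 105, 165 and 300 minutes, and 1336 FPKM in the asynchronous culture. Its highest release value was at 105 minutes. RXRA, the shared partner of many nuclear receptors, had 93.2 FPKM at 105 minutes, against 46.4 FPKM at 80 minutes, and its transcripts ranged from 0.66 to 1.32 log2. ONECUT2 had 231 FPKM at 105 minutes, against 134 FPKM at 80 minutes. CEBPD had 87.03 FPKM at 105 minutes, against 50.6 FPKM at 80 minutes but rests on 40.98 estimated reads at 105 and 23.3 at 80 minutes. HNF4A, a nuclear receptor that marks hepatocytes, had 694, 785, 1009, 1375, 1553 and 1075 FPKM at the 6 release times, and 947 FPKM in the asynchronous culture.

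The genes for proteins that liver cells secrete did not show the same shift. Of 61 listed genes 50 were kept, with a median of 0.07 log2. Past 1.5-fold, 2 (4%) were higher, against 6.07% of all genes, and 0 lower. ALB, which encodes albumin, had 128, 100.4, 166, 165, 357 and 662 FPKM at 0, 40, 80, 105, 165 and 300 minutes, and 2295 FPKM in the asynchronous culture. AFP, which encodes alpha-fetoprotein, had 133, 101, 182, 192, 579 and 1078 FPKM at the 6 release times, and 3964 FPKM in the asynchronous culture. At 105 minutes both lay below the asynchronous culture. AMBP, a plasma protease inhibitor precursor, had 341 FPKM at 105 minutes, against 241 FPKM at 80 minutes, and TF, which encodes transferrin, had 63.7 FPKM at 105 and 46.8 FPKM at 80 minutes. The pair past 1.5-fold were ORM2 and its near-identical neighbour ORM1. ORM2 had 29.1 FPKM at 105 and 9.45 FPKM at 80 minutes, on 11.7 estimated reads at 80 minutes. It passed the 10 FPKM filter at 105 minutes alone. ORM1 had 48.8 FPKM at 105 and 28.6 FPKM at 80 minutes, on 35.5 estimated reads at 80 minutes.

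Genes of lipid synthesis had a median of -0.12 log2 over 35 kept genes. At least 1.5-fold lower were 5 (14.3%), against 7.43% of all genes, and 0 were at least 1.5-fold higher. All 5 act in or control the cholesterol pathway. HSD17B7, a sterol reductase gene, had 106 FPKM at 105 minutes, against 210.3 FPKM at 80 minutes. MVD, which makes the isoprene unit, had 498 FPKM at 105 minutes, against 865 FPKM at 80 minutes. INSIG1, the sterol-responsive brake on SREBP processing, had 785, 968, 2003, 1218, 379 and 259.7 FPKM at 0, 40, 80, 105, 165 and 300 minutes, and 584 FPKM in the asynchronous culture. It was highest at 80 minutes and lower at every later time. DHCR7 and TM7SF2, both sterol reductase genes, had 459.6 FPKM at 105 and 735 FPKM at 80 minutes for DHCR7, and 50.2 FPKM at 105 and 82.9 FPKM at 80 minutes for TM7SF2. The fatty acid genes ACACA and ACLY had log2 differences of 0.09 and 0.20.

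Among cytokine and growth factor genes the step held some of the largest differences in single genes. CSF1, the macrophage growth factor, had 131, 112, 242, 736, 969 and 399 FPKM at 0, 40, 80, 105, 165 and 300 minutes, and 109.8 FPKM in the asynchronous culture. It was 3.03-fold higher at 105 than at 80 minutes. TNF, a pro-inflammatory cytokine, had 22.9, 25.03, 42.03, 125, 127 and 18.7 FPKM at the 6 release times, and 4.74 FPKM in the asynchronous culture. It was 2.92-fold higher at 105 than at 80 minutes, on 130.1 estimated reads at 105 and 42.8 at 80 minutes. TNFAIP2 had 1043 FPKM at 105 minutes, against 500.3 FPKM at 80 minutes and LIF, a cytokine of the IL-6 family, had 453 FPKM at 105 minutes, against 255 FPKM at 80 minutes. PDGFB, which encodes a platelet-derived growth factor chain, had 171 FPKM at 105 minutes, against 79.1 FPKM at 80 minutes. The NF-kB and interferon list as a whole had a median of 0.09 log2 over 36 kept genes. Past 1.5-fold, 4 (11.1%) were higher and 2 (5.56%) lower, against 6.07% and 7.43% of all genes. IFI27 was the fourth higher gene, at 78.2 FPKM at 105 and 50.4 FPKM at 80 minutes. The 2 lower genes were IL6 and IFI6. IL6 had 3.88 FPKM at 105 and 15.9 FPKM at 80 minutes, on 7 estimated reads at 105 minutes. IFI6 had 5.75 FPKM at 105 and 15.3 FPKM at 80 minutes, on 13.2 estimated reads at 105 minutes. Both passed the 10 FPKM filter at 80 minutes alone, so the count of lower genes rests on that filter. NFKB1, which encodes an NF-kB subunit, had 506 FPKM at 105 and 338 FPKM at 80 minutes.

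Stress response lists had medians below 0. The heat shock list had a median of -0.21 log2 over 33 genes. At least 1.5-fold lower were 3 (9.09%), a share close to the 7.43% of all genes, and 0 were at least 1.5-fold higher. DNAJB1, a co-chaperone gene, had 1799.8, 1665, 1381, 881, 612 and 730.1 FPKM at 0, 40, 80, 105, 165 and 300 minutes, and 1128 FPKM in the asynchronous culture, lower at each release time up to 165 minutes. HSPE1, the mitochondrial co-chaperone gene, had 955 FPKM at 105 minutes, against 1441 FPKM at 80 minutes. HSPA6 had 27.00 FPKM at 105 and 46.3 FPKM at 80 minutes. The unfolded protein and ATF4 list had a median of -0.11 log2 over 37 genes. Past 1.5-fold, 2 (5.41%) were higher and 3 (8.11%) lower, shares close to the 6.07% and 7.43% of all genes. DDIT3, a factor induced by ATF4, had 3262 FPKM at 105 minutes, against 4999 FPKM at 80 minutes. The secretory pathway genes PDIA3 and SDF2L1 had 355 FPKM at 105 and 568 FPKM at 80 minutes for PDIA3, and 98.3 FPKM at 105 and 175 FPKM at 80 minutes for SDF2L1. DDIT4, an inhibitor of mTOR signalling, had 1260.3 FPKM at 105 minutes, against 782 FPKM at 80 minutes, and VLDLR had 93.7 FPKM at 105 and 61.1 FPKM at 80 minutes.

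Housekeeping lists differed little. The 60 ribosome biogenesis genes had a median of -0.07 log2 and the 34 proteasome genes 0.04 log2, with 0 past 1.5-fold in either. The 79 ribosomal protein genes had a median of -0.13 log2, which was -0.01 relative to genes of similar length. At least 1.5-fold lower were 3 (3.80%), against 7.43% of all genes. These were RPLP2, with 619.6 FPKM at 105 and 1071 FPKM at 80 minutes, RPS21, with 154 FPKM at 105 and 268 FPKM at 80 minutes, and RPL12, with 923 FPKM at 105 and 1407 FPKM at 80 minutes. The 52 splicing factor genes had a median of -0.03 log2, and SNRPD2 was at least 1.5-fold lower, with 249 FPKM at 105 and 399 FPKM at 80 minutes. Respiratory chain genes had a median of 0.08 log2 over 56 genes. COX8A, a cytochrome c oxidase subunit gene, stood apart from its list with 60.3, 69.9, 192, 71.04, 56.3 and 17.6 FPKM at 0, 40, 80, 105, 165 and 300 minutes, and 36.3 FPKM in the asynchronous culture, and NDUFC1, of complex I, had 539 FPKM at 105 and 852 FPKM at 80 minutes. In the nuclear pore and envelope list the median was -0.01 log2 over 41 genes. KPNA2, an importin alpha gene, had 391 FPKM at 105 minutes, against 700.1 FPKM at 80 minutes, and SUN2, an inner nuclear membrane gene, had 55.4 FPKM at 105 and 86.4 FPKM at 80 minutes.

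Genes that regulate transcription and chromatin differed by small amounts. The 66 RNA polymerase II and Mediator genes had a median of -0.04 log2. TBP, the TATA-binding protein gene, and CDK9, which encodes the kinase of pause release, had 654 FPKM at 105 and 939.8 FPKM at 80 minutes for TBP, and 1399 FPKM at 105 and 1893 FPKM at 80 minutes for CDK9. Of 62 chromatin modifier genes 51 were higher and 11 lower, with a median of 0.19 log2 and 0 past 1.5-fold. Relative to genes of similar length their median was 0.10 log2. The remodeller genes CHD7 and CHD8 had 107 FPKM at 105 and 72.8 FPKM at 80 minutes for CHD7, and 392 FPKM at 105 and 270.4 FPKM at 80 minutes for CHD8, and the methyltransferase gene KMT2A had 312 FPKM at 105 and 229 FPKM at 80 minutes. HDAC4, a histone deacetylase gene, had 15.3 FPKM at 105 and 22.9 FPKM at 80 minutes, and its 2 transcripts had log2 differences of -1.55 and -0.07.

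The step differed by gene length. Protein-coding genes of 3 to 10 kb had a median of -0.11 log2, with 4.05% at least 1.5-fold higher and 10.5% at least 1.5-fold lower. Genes of 100 to 300 kb had a median of 0.18 log2, with 7.21% at least 1.5-fold higher and 0.309% lower. From the shortest class, up to 3 kb, to the longest, over 300 kb, the medians were -0.08, -0.11, -0.07, 0.04, 0.18 and 0.16 log2. Among genes with 100 or more FPKM in the higher column they were -0.08, -0.10, -0.03, 0.10, 0.29 and 0.38 log2. The neighbouring steps share a column with this one. Their medians over the same classes were 0.51, 0.54, 0.45, 0.36, 0.11 and -0.14 log2 for 80 minus 40 minutes, and -0.44, -0.27, -0.16, -0.06, 0.15 and 0.39 log2 for 165 minus 105 minutes. Lengths are from RefSeq on GRCh38.p14, while the files are on hg19.

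Transcripts of 1 gene that differ in extent were then set side by side. Genes over 100 kb were taken in which a short transcript spans at most 50% of the long one and shares its 5′ or its 3′ end, with both at 10 or more FPKM. Spans are from GENCODE, and the rule was chosen after values had been seen. In 93 genes the short transcript shares the 5′ end. There the short transcript had a median of 0.03 log2 and the long one 0.18 log2 at this step, and the short one had the higher difference in 22 of the 93. At the later step of 165 minus 105 minutes these medians were 0.04 and 0.35 log2. In 178 genes the short transcript shares the 3′ end. There the short transcript had a median of 0.28 log2 and the long one 0.20 log2, and the short one had the higher difference in 124 of 178. At 80 minus 40 minutes the order was the other way. Short transcripts at the 5′ end had a median of 0.52 log2 against 0.12 for the long ones, and those at the 3′ end had -0.16 against 0.00.

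Single genes, chosen after their values were seen, illustrate these differences. PDLIM5, which encodes a scaffold of the actin cytoskeleton, has a short transcript at its 5′ end of 5.30 kb. That transcript had 939.7 FPKM at 105 minutes and 1310.1 FPKM at 80 minutes, while the long transcript of 214 kb had 299 FPKM at 105 minutes and 272 FPKM at 80 minutes. SMAD3, a transducer of TGF-beta signals, has a short transcript at the 3′ end of 24.7 kb, with 1582 FPKM at 105 minutes and 807 FPKM at 80 minutes. Its long transcript of 129 kb had 1552 FPKM at 105 minutes and 1006 FPKM at 80 minutes. TLK1, a chromatin assembly kinase gene, had 267 FPKM at 105 minutes and 141 FPKM at 80 minutes for the short transcript at its 3′ end, against 187 FPKM at 105 minutes and 143 FPKM at 80 minutes for the long one. PIK3R1, which encodes the regulatory subunit of PI3-kinase, is shorter than the genes counted above and not among them. It had 214 FPKM at 105 minutes and 187 FPKM at 80 minutes for the transcript of 86.1 kb. Its 3 short transcripts of 6.19 to 10.2 kb had 441 to 478 FPKM at 105 minutes and 172 to 177 FPKM at 80 minutes.

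**Figure D4:**
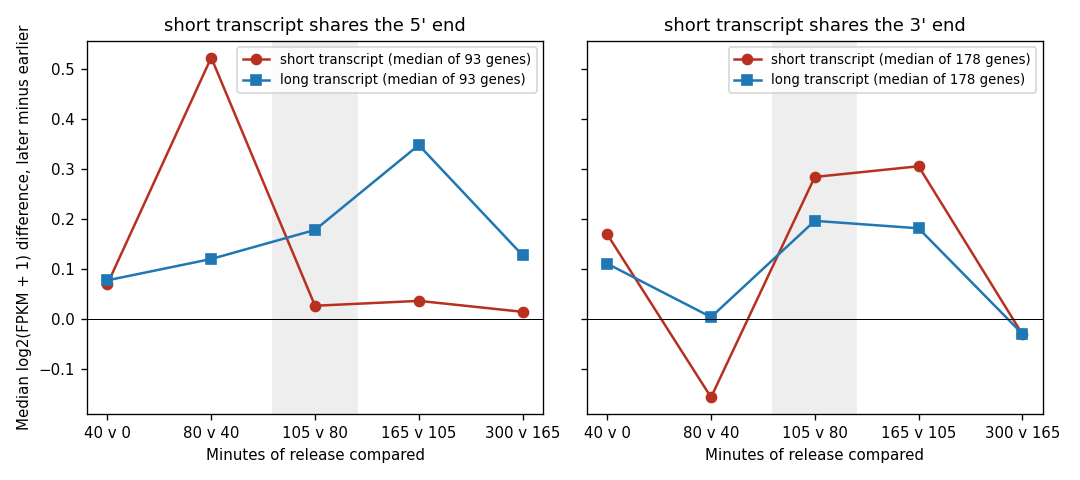
Median log2 difference of FPKM + 1 (later minus earlier) at the 5 successive steps of release for short and long transcripts of the same gene, with short ones at the 5′ end (left, 93 genes) or the 3′ end (right, 178 genes). Grey marks 105 against 80 minutes, where short transcripts lie below long ones at the 5′ end (0.03 and 0.18) and above them at the 3′ end (0.28 and 0.20).

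Long noncoding RNAs had a median of -0.14 log2 over 1777 kept, and 101 (5.68%) lay at least 1.5-fold above and 291 (16.4%) below. The 14061 protein-coding genes had a median of 0.01 log2, and 599 (4.26%) lay at least 1.5-fold above and 677 (4.81%) below. Transcripts named as divergent, which start next to a gene on the opposite strand, had a median of -0.31 log2 over 188, with 1 (0.532%) at least 1.5-fold higher and 51 (27.1%) lower. Those named as antisense had a median of -0.21 log2 over 624, with 24 (3.85%) higher and 118 (18.9%) lower. Intergenic ones with LINC symbols had a median of -0.04 log2 over 442.

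Beside the gene each is named after, 182 divergent transcripts had a median of -0.31 log2 and their genes 0.08 log2, and the transcript had the lower difference in 146 pairs (80.2%). In 527 antisense pairs the medians were -0.22 and 0.12 log2, with the transcript lower in 393 (74.6%). These transcripts are shorter than their genes, with median lengths of 10.8 and 39.1 kb in the divergent pairs. Where both lie between 3 and 30 kb, the medians in 40 divergent pairs were -0.34 log2 for transcripts and -0.17 log2 for genes, with 29 transcripts lower. In 99 such antisense pairs they were -0.19 and -0.04 log2, with 65 lower. The transcript ATP2B1-AS1 had 459.8 FPKM at 105 minutes and 990.3 FPKM at 80 minutes, while ATP2B1, a calcium pump gene, had 938 FPKM at 105 minutes and 506 FPKM at 80 minutes. PPP3CA-DT had 419 FPKM at 105 minutes and 767 FPKM at 80 minutes, while PPP3CA, the calcineurin catalytic subunit gene, had 172 FPKM at 105 minutes and 116 FPKM at 80 minutes. SLC20A1-DT had 70.6 FPKM at 105 minutes and 172 FPKM at 80 minutes, and SLC20A1, a phosphate transporter gene, had 2089 FPKM at 105 minutes and 2540 FPKM at 80 minutes. The libraries were stranded, per the labels, but the use of strand in counting is not stated, so overlapping pairs may share reads.

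**Figure D5:**
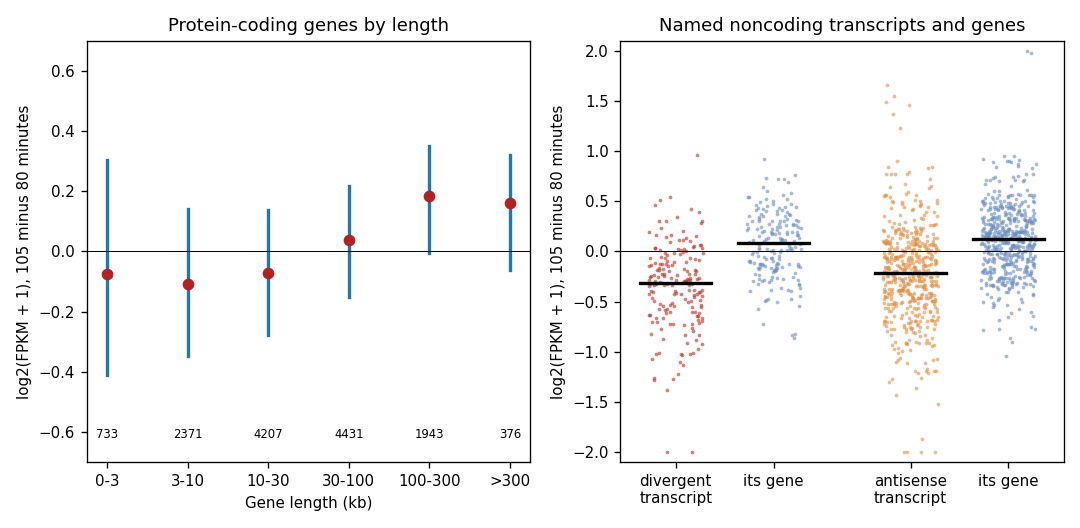
Left, median (red point) and quartiles (blue bar) of the log2 difference of FPKM + 1 (105 minus 80 minutes) for protein-coding genes by length, with the number of genes below. Right, the same difference for divergent and antisense transcripts and the genes they are named after, with medians as bars. Medians go from -0.08 in the shortest to 0.16 in the longest class, and the noncoding medians (-0.31 and -0.22) lie below those of their genes. The 6 values beyond 2 log2 units are drawn at the limit.

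Long noncoding RNAs of the list went both ways, with 8 higher and 16 lower at 105 minutes. Among 24 snoRNA hosts and long noncoding RNAs the median was -0.14 log2, and SNHG10, a snoRNA host, was at least 1.5-fold lower with 411 FPKM at 105 and 619 FPKM at 80 minutes. NEAT1, the scaffold of paraspeckles, had 4739 FPKM at 105 and 4343 FPKM at 80 minutes, and MALAT1, a nuclear speckle RNA, had 4199 FPKM at 105 and 4388 FPKM at 80 minutes. GAS5, another snoRNA host, had 2298 FPKM at 105 and 3278 FPKM at 80 minutes. The most elevated members, EPB41L4A-AS1, CYTOR and KCNQ1OT1, had log2 differences of 0.54, 0.49 and 0.45. Of 29 small structured RNAs 14 were kept, with a median of -0.34 log2. At least 1.5-fold lower were 6 (42.9%), against 7.43% of all genes, on at most 11.02 estimated reads at 80 minutes. Among them VTRNA2-1, RMRP and SCARNA10 passed the 10 FPKM filter at 80 minutes alone, with 0, 7.98 and 9.13 FPKM at 105 minutes. Their direction was thus partly set by the filter. The 888 microRNA genes had a median of 0.06 log2. At least 1.5-fold higher were 254 (28.6%) and lower 240 (27.0%), against 6.07% and 7.43% of all genes. MicroRNA genes are short, and counting error is already 1.06 log2 at 1 kb and 10 FPKM. These shares are therefore not read as changes of the microRNA genes. Medians were -0.10 log2 for the 225 snoRNA genes and -0.33 log2 for the 35 snRNA genes.

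Small RNAs were left out of the ranking by size. Among protein-coding and long noncoding genes, the 12 with the highest and the 12 with the lowest difference rested on at most 16.9 estimated reads in a column, and 4 and 5 of them were listed at 0 in 1 column. Where the larger value was 100 FPKM or more and the smaller 5 FPKM or more, the 10 most elevated of these genes included CSF1, TNF and the genes below. COL27A1, a fibrillar collagen gene of 158 kb, had 30.3, 40.2, 47.9, 123, 168 and 127 FPKM at 0, 40, 80, 105, 165 and 300 minutes, and 161 FPKM in the asynchronous culture. MRPL34, a mitochondrial ribosomal protein gene, had 421 FPKM at 105 minutes, against 165 FPKM at 80 minutes, and ZNF792, a zinc finger gene, had 125 FPKM at 105 and 50.3 FPKM at 80 minutes. TAS2R4 and OR2B6, a bitter taste and an odour receptor gene, had 147 FPKM at 105 and 38.4 FPKM at 80 minutes for TAS2R4, and 118 FPKM at 105 and 43.4 FPKM at 80 minutes for OR2B6, and the histone gene H1-2 had 100.4 FPKM at 105 and 39.4 FPKM at 80 minutes. These limits on FPKM do not remove short genes with few reads. OR2B6 rests on 41.88 estimated reads at 105 and 14.99 at 80 minutes, and H1-2, as a short histone gene, may also rest on few. The remaining pair, FOXD4 and its copy FOXD4L1, had 183 FPKM at 105 and 75.5 FPKM at 80 minutes for FOXD4, and 182 FPKM at 105 and 76.01 FPKM at 80 minutes for FOXD4L1.

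The 10 most reduced protein-coding and long noncoding genes under the same limits included AURKB, COX8A and H3C2. The other histone genes were H2AC11, H2AC12 and H3C7, with 98.9 FPKM at 105 and 267 FPKM at 80 minutes for H2AC11, 51.4 FPKM at 105 and 139.7 FPKM at 80 minutes for H2AC12, and 66.4 FPKM at 105 and 179.6 FPKM at 80 minutes for H3C7. Like H1-2, these short genes may rest on few estimated reads. CFAP184, a cilia protein gene, had 156 FPKM at 105 minutes, against 416 FPKM at 80 minutes. SOD2-OT1, a noncoding transcript, had 176 FPKM at 105 minutes, against 466 FPKM at 80 minutes. The last 2 were uncharacterised loci, LOC101593348 with 64.6 FPKM at 105 and 189 FPKM at 80 minutes and LOC100289361 with 202 FPKM at 105 and 576 FPKM at 80 minutes. In all 10 except AURKB, the value at 80 minutes was also above that at 0 and 40 minutes.

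The label of the cells was checked against markers. The hepatocyte genes APOA1, SERPINA1 and TF had 50.3 FPKM at 105 and 58.2 FPKM at 80 minutes for APOA1, 128 FPKM at 105 and 105 FPKM at 80 minutes for SERPINA1, and 63.7 FPKM at 105 and 46.8 FPKM at 80 minutes for TF, beside ALB, AFP, HNF4A and FOXA2 above. Of 20 blood cell markers 12 passed 10 FPKM, and their summed level was 991 FPKM at 105 minutes and 1416 FPKM at 80 minutes, most of it from the lysosomal gene CD68. Of the 12, 1 (8.33%), the globin HBA1, was at least 1.5-fold higher, against 6.07% of all genes. CD68 and the platelet gene PF4 (16.7%) were at least 1.5-fold lower, against 7.43% of all genes. HBA1 and PF4 each passed the filter in their higher column alone. They rest on 4.19 and 2.02 estimated reads at 105 minutes, and 2.60 and 6.28 at 80 minutes. The T cell marker CD3E had 9.64 FPKM at 105 and 13.7 FPKM at 80 minutes, near the filter. The pan-leukocyte marker PTPRC and the globin HBB were below it, with 2.60 FPKM at 105 and 3.93 FPKM at 80 minutes for PTPRC, and 0 FPKM at 105 and 0 FPKM at 80 minutes for HBB. Of 17 markers of stroma and endothelium 8 were kept, with a median of 0.31 log2. At least 1.5-fold higher were 3 (37.5%), against 6.07% of all genes, and 0 were at least 1.5-fold lower. The 8 had a summed level of 1062 FPKM at 105 minutes and 864 FPKM at 80 minutes, most of it from LUM and TAGLN. LUM had 418 FPKM at 105 and 304 FPKM at 80 minutes, and TAGLN had 314 FPKM at 105 and 363 FPKM at 80 minutes. The receptor gene PDGFRA had 179 FPKM at 105 minutes, against 89.1 FPKM at 80 minutes, and the collagen genes COL1A1 and COL1A2 had 50.2 FPKM at 105 and 28.7 FPKM at 80 minutes for COL1A1, and 57.4 FPKM at 105 and 36.5 FPKM at 80 minutes for COL1A2. Of the 8 kept markers 6 were higher and 2, TAGLN and PECAM1, lower. PDGFRA and the collagen genes were higher alongside the adhesion list, and their part in that result was not tested. The endothelial marker PECAM1 had 15.9 FPKM at 105 and 17.7 FPKM at 80 minutes, and the defining genes CDH5 and DCN had 4.76 FPKM at 105 and 5.28 FPKM at 80 minutes for CDH5, and 1.63 FPKM at 105 and 3.35 FPKM at 80 minutes for DCN.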

How the data were processed

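EU-labelled RNA of HUH7 cells was captured, depleted of ribosomal RNA and made into stranded libraries, per the labels' protocols. The deposited table holds FPKM values per RefSeq transcript on hg19, in 1 column for each of 7 groups of 3 libraries, per the file headers. The tools bcl2fastq, Bowtie2 2.2.9, TopHat and bedtools are named, per the submitters' processing notes. The sources used here do not give how the authors pooled the libraries or whether counting used strand.

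Transcripts were matched to RefSeq symbols (47127 of 48205) and collapsed to genes by the mean of distinct value vectors. Genes with 10 or more FPKM in either column were compared as log2(FPKM + 1), with no test, since each group has 1 pooled value. Estimated reads are FPKM times the RefSeq gene length, divided by the commonest value step of microRNA genes. Where a value belongs to a transcript shorter than the gene, this estimate can be too high and its counting error too low. OR4F29 and OR4F16, for example, hold identical values but get 31.2 and 1464 estimated reads at 105 minutes. By steps, the 105-minute column was 1.02 times as deep as the 80-minute column. The computation was tested on simulated data.

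Members and lists were chosen with earlier results of these data known. Named genes were, among protein-coding and long noncoding genes, the 12 largest differences in each direction and the 10 largest in each direction at 100 or more FPKM in the higher and 5 or more in the lower column, with up to 4 members of each list, and a set (FOS, EGR1, MYC, CCND1, CCNE1, CDKN1A, CCNB1, ALB, AFP, HNF4A, MALAT1, NEAT1 and ACTB). Other genes were named after their values were seen. Python 3.11.15, pandas 2.3.3, NumPy 2.4.6 and matplotlib 3.10.9 were used. Some genes that this rule covers are not reported here.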

Additional observations from a re-analysis of the deposited data

How the results depend on the processing

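No paired analysis was possible because the table has 1 pooled column per group, so neither a replicate block nor leaving out a library could be run. Pseudocounts of 0.1 and 5, 3 other scalings and 2 other ways of collapsing transcripts kept the counts of genes within 1.5 times those reported. The filter on low values moved them. With no filter, 529 genes passed 2-fold upward and 750 downward, and 2166 were at least 1.5-fold lower. With a 1 FPKM filter there were 529, 750 and 2073, and with a 50 FPKM filter 174, 212 and 806. With 100 or more estimated reads, an alternative chosen after seeing the data, 72 and 79 genes passed 2-fold and 595 and 712 passed 1.5-fold, higher and lower. The higher share of 1.5-fold calls was 44.96% as reported and between 40.7% and 47.7% under the alternatives.

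Of the 27 list medians, taken here relative to the all-gene median, that of stroma and endothelium markers was 0.090 log2 with no filter, 0.090 with a 1 FPKM filter, 0.61 with a 50 FPKM filter and 0.46 with 100 or more estimated reads. The histone median was -0.074 with 100 or more estimated reads. Relative to genes of the same length class, also chosen after seeing the data, the medians were 0.21 for immediate early genes, -0.013 for ribosomal proteins and -0.21 for small structured RNAs. The causes were not tested. No list median of 0.2 log2 or more in size and no named gene past 1.5-fold changed direction under these alternatives. For single genes much of this was fixed in advance. A filter does not alter the difference of a gene, and collapsing does not alter genes with 1 value vector. Genes that a filter removed were not scored. Of 157 named genes, 122 were scored with the 50 FPKM filter and 115 with 100 or more estimated reads. Of 116 named genes past 1.5-fold, 3 (VLDLR, SNHG10 and HBA1) fell under it in some alternative. Depth limits short genes most, with a counting error of 1.06 log2 at 1 kb and 10 FPKM.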

Other observations

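Some families of genes in clusters or near-identical copies were higher at 105 minutes. They were noticed after the values were seen, so their counts are descriptions. Bitter taste receptor genes went both ways. TAS2R3 had 285 FPKM at 105 minutes, against 184 FPKM at 80 minutes. TAS2R5 had 131 FPKM at 105 minutes, against 56.9 FPKM at 80 minutes, on 24.0 estimated reads at 80 minutes. Lower were TAS2R14, with 18.8 FPKM at 105 and 33.3 FPKM at 80 minutes, and by less TAS2R30 and TAS2R13. Several others passed the 10 FPKM filter at 105 minutes alone, on few reads, so no count over that family or over the olfactory receptor genes is given. All 6 kept copies of the forkhead gene FOXD4 were at least 1.5-fold higher, against 6.07% of all genes, with a median of 1.21 log2. Reads may be shared between these copies, so they are not 6 separate results. FOXD4L3 had 212 FPKM at 105 minutes, against 93.97 FPKM at 80 minutes, and FOXD4L6 had 221 FPKM at 105 minutes, against 95.2 FPKM at 80 minutes. The 10 kept genes of the NBPF family, which is repeated on chromosome 1, had a median of 0.72 log2. At least 1.5-fold higher were 7 (70%), against 6.07% of all genes, and 0 were at least 1.5-fold lower. OR2A1 and OR2A42 hold identical values in every column, 98.01 FPKM at 105 and 22.3 FPKM at 80 minutes, so reads of such copies are not told apart.

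Other symbol families differed less. The 459 ZNF genes had a median of 0.09 log2, the 21 CENP genes, which encode centromere proteins, -0.34 log2, and the 35 KIF kinesin genes -0.13 log2. The 6 kept metallothionein genes, whose proteins bind metal ions, had a median of -0.45 log2. Past 1.5-fold, 1 (16.7%) was higher and 3 (50%) lower, against 6.07% and 7.43% of all genes. The lower genes MT2A, MT1F and MT1X rest on 11.4, 16.6 and 36.3 estimated reads at 105 minutes. At 80 minutes these were 27.2, 25.9 and 62.1. The higher gene, MT1A, passed the filter at 105 minutes alone, on 7.37 estimated reads at 105 and 1.43 at 80 minutes. The 8 CHD remodeller genes had a median of 0.33 log2 and 0 past 1.5-fold.

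Some genes outside the lists had large differences on many estimated reads. GALNT10, a glycosyltransferase gene of 230.2 kb, had 98.7, 122, 131, 293, 546 and 366 FPKM at 0, 40, 80, 105, 165 and 300 minutes, and 391 FPKM in the asynchronous culture. CDCA5, which encodes the cohesin protector sororin, had 103 FPKM at 105 minutes, against 224 FPKM at 80 minutes. ANKRD37, a hypoxia-responsive gene, had 155, 209, 676, 294, 67.4 and 61.3 FPKM at the 6 release times, and 35.4 FPKM in the asynchronous culture, and was highest at 80 minutes. NANOS1, an RNA-binding protein gene, had 114 FPKM at 105 minutes, against 281 FPKM at 80 minutes. CYP3A5, a drug-metabolising enzyme gene of liver, had 38.1, 48.6, 54.9, 123, 226 and 224 FPKM at the 6 release times, and 26.2 FPKM in the asynchronous culture, and IL18BP, which encodes a secreted inhibitor of interleukin 18, had 664 FPKM at 105 minutes, against 296 FPKM at 80 minutes.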
